A study of Rattus norvegicus with 6 samples.

Results

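Macrophages of a wound take up debris, modified lipoproteins and dying cells through scavenger receptors and lectins, and 10 genes of this work were followed here in wounds of diabetic rats: Msr1, Marco, Cd36, Stab1, Mrc1, Clec10a, Mertk, Trem2, Gpnmb and Il10. They were chosen by symbol, all 10 were found among the 18825 genes of the deposited table, and 9 passed the filter on low counts. Marco, a class A scavenger receptor, did not pass it. Messenger RNA came from dorsal wounds, through the full thickness of the skin, of male Sprague–Dawley rats made diabetic with a diet high in fat and sucrose and then streptozotocin, which destroys pancreatic beta cells. One group of 3 libraries came from wounds treated with DST-MNs, microneedles loaded with spheroids of dental pulp stem cells, which were regulated with the polyamine spermidine and the growth factor TGF-β3, and the other group of 3 came from untreated diabetic wounds (control). The rats of both groups were diabetic, and the labels name neither the day of collection nor any pooling of animals. The labels call the libraries biological replicates without tying them to single rats, so p-values measure the spread between these libraries.

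Scavenger receptors are surface proteins of several unrelated families that bind polyanionic ligands. Class A receptors such as MSR1 and MARCO bind modified lipoproteins and bacteria, the class B receptor CD36 binds fatty acids and oxidised lipoproteins, and stabilin 1 clears matrix fragments. The lectins MRC1 and CLEC10A bind sugars, MERTK takes up apoptotic cells through bridging proteins, TREM2 senses lipids and signals through the adaptor TYROBP, GPNMB is a glycoprotein of lysosome-rich cells, and interleukin 10 restrains inflammatory gene expression. Mrc1, Clec10a, Msr1 and Il10 are often used as markers of alternatively activated macrophages, and Trem2 and Gpnmb as markers of macrophages that handle lipid.

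Upstream sequences of 3 members that the results turn on are shown because their fitted changes had different signs, positive for Gpnmb and Trem2 and negative for Mrc1, although none passed the test and the groups overlapped for Gpnmb. They are the 150 bases before the RefSeq transcription start, 5′ to 3′ on the gene's strand, in build GRCr8, which is not the build of the counts. Capitals mark letters of the motifs searched.
Gpnmb, chr4:79340978-79341127, plus strand: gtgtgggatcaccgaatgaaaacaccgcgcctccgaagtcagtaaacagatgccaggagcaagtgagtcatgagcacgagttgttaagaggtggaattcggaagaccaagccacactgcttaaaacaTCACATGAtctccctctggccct
Trem2, chr9:20151780-20151929, minus strand: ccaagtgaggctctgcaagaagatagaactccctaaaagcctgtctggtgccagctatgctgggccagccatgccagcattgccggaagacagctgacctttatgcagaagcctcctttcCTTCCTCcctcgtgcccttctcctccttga
Mrc1, chr17:82157575-82157724, plus strand: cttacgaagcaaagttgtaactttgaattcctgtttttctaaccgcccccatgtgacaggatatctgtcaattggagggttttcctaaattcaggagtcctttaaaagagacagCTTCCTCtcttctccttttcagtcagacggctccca

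Promoter sequence was matched by symbol for 7 of the 10 members. The motifs searched over the 250 bases before the start, on both strands, were TCACATGA with its complement TCATGTGA, which is a site form of the MITF family, CACGTG, a general E-box that reads the same on both strands, and GAGGAAG with its complement CTTCCTC, which is part of the purine-rich site of PU.1. None of them overlaps another in the 3 stretches shown. TCACATGA was found in Gpnmb alone among the 7, with its first base at -23, and in 0.977% of 33469 promoters. Only exact matches were counted, and the Mrc1 stretch shown holds catgtga, which is TCATGTGA without its first letter. GAGGAAG or its complement was found in Mrc1 at -36, Trem2 at -30, Gpnmb at -181, Marco at -104 and Cd36 at -250, and in 10.2% of all promoters. CACGTG, found in 5.59% of promoters, was in none of the 7. These are letter matches in a short window and not measured binding.

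Estimated counts per library totalled 12545206 to 13818548. All 20 general macrophage genes listed, among them Cd68, Csf1r and Adgre1, passed the count filter, and their summed level was 3958 to 5761 CPM (each count as its share of the library, after TMM scaling, times 1000000) in DST-MNs libraries and 3794 to 5278 CPM in controls. In tissue RNA, fewer cells of a type and less RNA per cell cannot be told apart. Skeletal muscle genes set 2 controls apart: their 8 markers summed to 3600 to 4616 CPM in DST-MNs libraries, against 5055, 15.4 and 231 CPM in controls 1, 2 and 3.

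The comparison of treated with untreated wounds asked which genes differ between them. The lectin receptor genes Mrc1 and Clec10a and the scavenger receptor gene Msr1 stood at about 0.53 to 0.57 of the control level in treated wounds, and Il10 at 0.37. Trem2 and Gpnmb stood at 1.66 and 1.69 times the control level. None of the 9 members tested passed edgeR's quasi-likelihood test at a Benjamini-Hochberg adjusted p below 0.05, which 0.776% of 14427 genes passed. With DESeq2, a more permissive test here that called 7.1% of genes, 3 members were called: Clec10a and Mrc1 lower, as 2.73% of all genes were, and Trem2 higher, as 4.36% were. At an unadjusted p below 0.05, 4 members were lower and 1 higher, where 6.88% of all genes were lower and 9.8% higher. In TMM-scaled CPM the libraries of the 2 groups did not overlap for 6 of the 9 members, against 22.9% of all genes. In TPM, for which no share of all genes was taken, only Mrc1, Clec10a and Trem2 were apart. The median log2 change was -0.27 over the 9 members and 0.0044 over all genes tested.

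**Figure D1:**
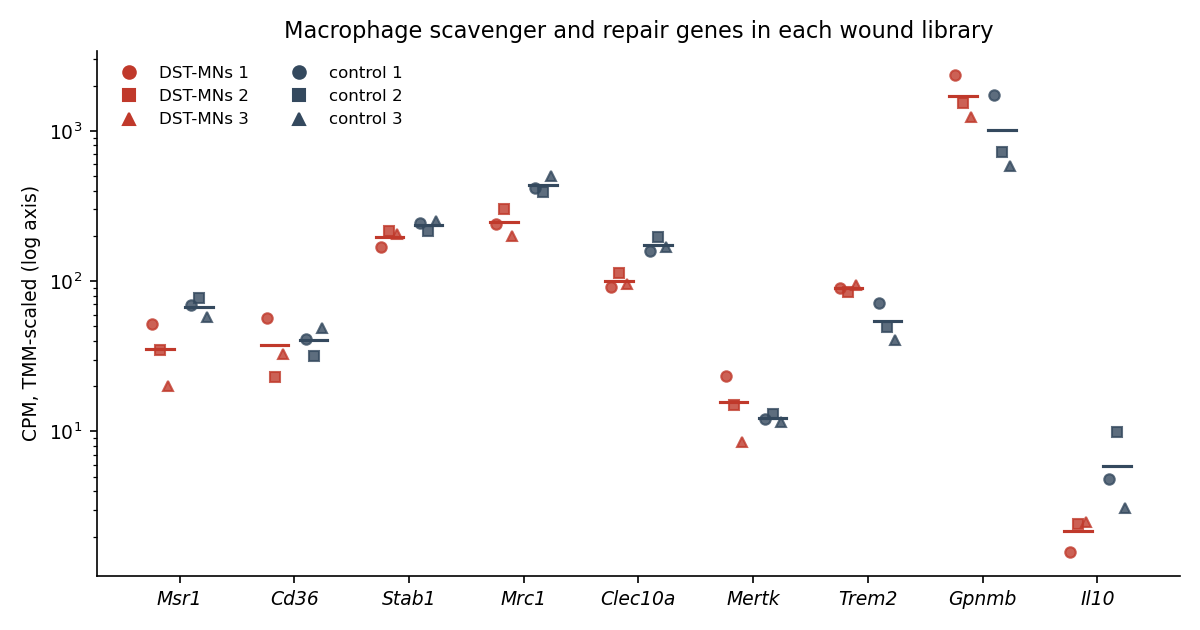
Level of 9 members in each library, in TMM-scaled CPM on a log axis, with DST-MNs libraries left of controls, a symbol for each replicate number and a bar for the mean of 3. Mrc1, Clec10a, Msr1 and Il10 lie lower in every DST-MNs library than in any control, Trem2 lies higher, and Gpnmb overlaps because control 1 reaches 1741 CPM.

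Among the class A scavenger receptors, Msr1 (gene ID 498638), which binds modified lipoproteins, had 51.9, 34.6 and 20.2 CPM in DST-MNs 1, 2 and 3, against 68.9, 76.9 and 57.5 CPM in controls 1, 2 and 3. Each DST-MNs library lay below each control, and the treated libraries were 2.57-fold apart. Its log2 change was -0.93 (SE 0.33, 95% interval -1.70 to -0.15, adjusted p = 0.234, edgeR). In unscaled counts the groups already met, with 755 in DST-MNs 1 and 739 in control 3. They also met in TPM, which scales by transcript length too, at 38.7 TPM in DST-MNs 1 and 38.0 TPM in control 3. The separation of Msr1 in CPM thus depended on the scaling.

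Marco (367391), the other class A receptor followed, is a gene of resident macrophages of lung and spleen. It had 0 counts in each DST-MNs library and 1, 0 and 0 counts in controls 1, 2 and 3, so it was not detectable at this depth. A count of 0 allows up to 3 counts, or 0.222 to 0.239 CPM on the unscaled totals in a DST-MNs library, counting error only. Of the other scavenger receptor genes listed, 11 of 12 were tested and 0 passed. Cd5l, a secreted protein of tissue macrophages, had the smallest p of that list, with 25.0 ± 14.8 CPM in DST-MNs libraries and 4.67 ± 2.60 CPM in controls (SD, n = 3 each; log2 change 2.42, SE 0.59, adjusted p = 0.137, edgeR). Colec12, a collectin-type scavenger receptor, stood at -0.43 and the large endocytic receptor Lrp1 at -0.60 on the log2 scale. DESeq2 called Cd5l higher and Colec12 and Lrp1 lower.

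Cd36 (29184), the class B receptor for fatty acids, had 57.0, 22.9 and 32.7 CPM in DST-MNs libraries, against 41.3, 31.8 and 49.0 CPM in controls. The treated libraries held both the highest and the lowest of the 6 values. The fitted log2 change was -0.11 (95% interval -0.93 to 0.70, adjusted p = 0.893, edgeR). It was 0.019 with total counts as the scaling, 0.036 with control 3 left out and 0.16 with DST-MNs 2 left out, so the direction was not set. Its counts were fractional in all 6 libraries, as happens where reads are divided among similar sequences, and its level is uncertain to that extent. Fat cells, capillary endothelium and muscle also express Cd36. The 10 fat cell markers summed to 558, 221 and 310.0 CPM in DST-MNs libraries, against 393, 213 and 227 CPM in controls, and 8 of the 10 passed the filter, with 0 called by edgeR or DESeq2. Both Cd36 and the fat cell sum were highest in DST-MNs 1 and lowest in DST-MNs 2 among the treated libraries, but among the controls Cd36 was highest in control 3 and the fat cell sum in control 1. The part of these cells in the Cd36 values was not tested.

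Stab1 (100363145), stabilin 1, had 169, 214 and 206 CPM in DST-MNs libraries, against 245, 215 and 252 CPM in controls. The groups were apart by about 1 CPM, between DST-MNs 2 and control 2, and in unscaled counts and in TPM they overlapped. The log2 change of Stab1 was -0.27 (95% interval -0.61 to 0.06, adjusted p = 0.381, edgeR). Treated libraries were 1.27-fold apart and controls 1.17-fold, a narrow spread next to that of Msr1 or Gpnmb. Its relative Stab2, a receptor of sinusoidal endothelium, had at most 7 counts in a library.

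Mrc1 (291327), the mannose receptor CD206, had 238, 300.3 and 199 CPM in DST-MNs libraries, against 418, 390.0 and 499 CPM in controls. All 3 treated libraries lay below all 3 controls. For Mrc1 the log2 change was -0.83 (SE 0.19, 95% interval -1.28 to -0.37). The adjusted p was 0.131 with edgeR and 0.000835 with DESeq2.

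Clec10a (64195), the galactose-type lectin also called MGL, had 91.4, 114 and 95.3 CPM in DST-MNs libraries, against 158, 196 and 170.0 CPM in controls. The groups did not overlap, and this was the member with the smallest p. For Clec10a it was -0.80 on the log2 scale (SE 0.14, 95% interval -1.14 to -0.47). The adjusted p was 0.0723 with edgeR, 1.21e-05 with DESeq2 and 0.0491 with edgeR without control replicate 1, a comparison in which 2.74% of all genes passed. Leaving out any other single library gave an adjusted p of 0.0794 to 0.258 (edgeR).

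Other C-type lectin and sugar-binding receptors of myeloid cells did not share these values. Of 15 listed, 11 were tested, 7 had positive and 4 negative log2 changes, the median was 0.087, and 0 passed edgeR's test. Siglec1, the sialoadhesin of some tissue macrophages, had 76.1, 95.3 and 29.8 CPM in DST-MNs libraries, against 34.8, 25.7 and 25.3 CPM in controls (log2 change 1.23, SE 0.40, adjusted p = 0.212, edgeR). DESeq2 called it higher, although DST-MNs 3 lay below control 1. Clec4a1 had a log2 change of 0.43 and Mrc2, the fibroblast collagen receptor of the Mrc1 family, one of -0.093.

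Endothelial cells can also express Mrc1 and Stab1, lymphatic ones in particular. The 10 blood endothelial markers, all tested, 0 called by edgeR and 1, Vwf, called lower by DESeq2, summed to 1128, 1555 and 1290 CPM in DST-MNs libraries, against 1584, 1833 and 1732 CPM in controls, with no overlap. The 7 lymphatic markers, 6 of them tested and 0 called by edgeR, summed to 183 to 239 CPM in DST-MNs libraries and 253 to 271 CPM in controls. The lymphatic markers did not move together. Podoplanin, Pdpn, which fibroblasts and some macrophages also express, made up the largest part of their sum, with 128 ± 20.5 CPM in treated and 222 ± 9.20 CPM in control wounds (SD, n = 3 each), and DESeq2 called it lower. The hyaluronan receptor Lyve1, which some macrophages also carry, averaged 3.52 ± 1.18 CPM in treated and 10.2 ± 6.80 CPM in control wounds (SD, n = 3 each; log2 change -1.53, adjusted p = 0.226, edgeR). The matrix protein gene Mmrn1, called higher by DESeq2, averaged 11.5 CPM in treated and 2.45 CPM in control wounds (log2 change 2.22), and the chemokine Ccl21 averaged 56.4 CPM in treated and 13.5 CPM in control wounds (log2 change 2.06), with overlapping libraries for both. The log2 change was 0.72 for Reln and -0.24 for Flt4. The lymphatic factor Prox1 reached at most 0.963 CPM in DST-MNs libraries and 0.309 CPM in controls. The part of endothelium in the Mrc1 and Stab1 values was not tested.

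Mertk (65037), the receptor tyrosine kinase for apoptotic cells, had 23.4, 14.9 and 8.48 CPM in DST-MNs libraries, against 12.1, 13.0 and 11.5 CPM in controls. The controls were close together, and the treated libraries lay on both sides of them. With edgeR the log2 change was 0.35 (95% interval -0.49 to 1.19, adjusted p = 0.655, edgeR), and -0.074 without DST-MNs replicate 1.

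The other genes of dead cell uptake mostly had small negative changes. Of 24 listed, 23 were tested, 16 were negative and 7 positive, with a median log2 change of -0.22, and 0 passed edgeR's test. Pros1, the bridging protein S, was at -0.63 on the log2 scale (SE 0.19, adjusted p = 0.182, edgeR), Lrp1 had a value of -0.60 and the surface signal calreticulin, Calr, a value of -0.60. DESeq2 called these 3 lower. The sister receptors of Mertk were at -0.16 (Axl) and 0.46 (Tyro3), and their ligand Gas6 at 0.10, with adjusted p of 0.700, 0.482 and 0.888 (edgeR).

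Trem2 (301227), the lipid-sensing receptor, had 90.1, 85.0 and 94.9 CPM in DST-MNs libraries, against 71.5, 49.9 and 40.9 CPM in controls. The treated libraries were close together and all above the controls, of which control 1 was the highest. Trem2 had a log2 change of 0.73 (SE 0.21, 95% interval 0.24 to 1.23). The adjusted p was 0.168 with edgeR, 0.0322 with DESeq2 and 0.0353 with edgeR without control replicate 1, where 2.74% of all genes passed. Leaving out any other single library gave an adjusted p of 0.231 to 0.481 (edgeR).

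Gpnmb (113955) was the most abundant member, with 2368, 1540 and 1233 CPM in DST-MNs libraries, against 1741, 727 and 580.4 CPM in controls. Control 1 lay above DST-MNs 2 and 3, and the other controls lay below every treated library. Its log2 change was 0.75 (SE 0.46, 95% interval -0.35 to 1.86, adjusted p = 0.460, edgeR), and 1.39 without control replicate 1 (adjusted p = 0.0865). Leaving out DST-MNs 1 gave 0.43, and leaving out control 3 gave 0.47. Gpnmb and Trem2 were both highest, among the controls, in control 1, the control with the most muscle RNA. The part of muscle in these values was not tested. Pigment cells also express Gpnmb, and their 7 markers summed to 7.19 to 16.0 CPM in DST-MNs libraries and 3.73 to 9.81 CPM in controls, of which 3 were tested and 0 called by edgeR or DESeq2. Dct, an enzyme of pigment synthesis, had 0.147 to 3.30 CPM in DST-MNs libraries and 0 to 0.0778 CPM in controls. Sox10, a factor of neural crest cells, averaged 2.54 CPM in DST-MNs libraries and 0.902 CPM in controls (log2 change 1.48, adjusted p = 0.492, edgeR), Mlana had a log2 change of 0.23 and Pmel one of 0.10. Tyrp1 reached 6 counts at most, tyrosinase, Tyr, 1 count at most, and Slc45a2 had 0 in all 6 libraries. The part of pigment cells in the Gpnmb values was not tested.

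**Figure D2:**
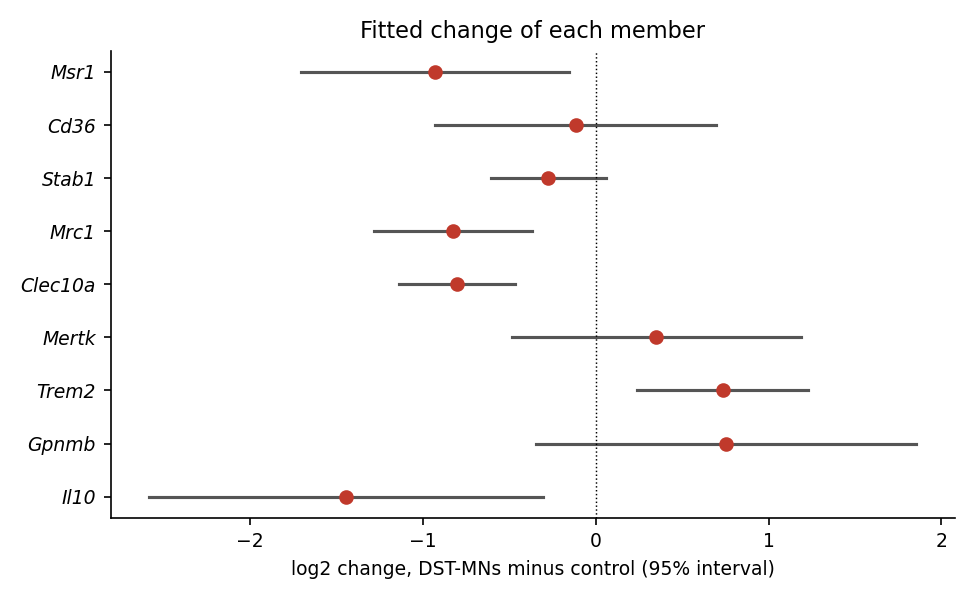
Log2 change of each tested member, DST-MNs minus control, from edgeR, with its 95% interval from the standard error. The intervals of Msr1, Mrc1, Clec10a and Il10 lie below 0, that of Trem2 lies above 0, and those of Cd36, Stab1, Mertk and Gpnmb cross 0; none passed adjustment over all genes.

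Genes that work with Trem2 or mark lipid-laden macrophages were divided. Of 20 listed and tested, 11 were positive and 9 negative, with a median log2 change of 0.051, and 0 passed edgeR's test. Lipa, the lysosomal acid lipase, had 269, 240.0 and 215 CPM in DST-MNs libraries, against 149.5, 156 and 142 CPM in controls (log2 change 0.69, SE 0.13, adjusted p = 0.0796, edgeR). Plcg2, a phospholipase that signals below TREM2, stood at 0.64 and the fatty acid carrier Fabp5, also a keratinocyte and sebaceous gland gene, at 1.48. The cathepsin Ctsl stood at -0.82 and the tetraspanin Cd63 at -0.57, and Trem1, which amplifies inflammatory signals, at -0.80. DESeq2 called Lipa, Plcg2, Fabp5 and lipoprotein lipase, Lpl, higher and Ctsl, Cd63 and Trem1 lower. The adaptor Tyrobp was at -0.28 (adjusted p = 0.453) and Apoe at -0.17 (adjusted p = 0.761). Of the sebaceous gland markers, 12 of 12 were tested, with 4 called higher by edgeR and 9 by DESeq2. They summed to 640.1 to 729 CPM in DST-MNs libraries and 26.0 to 107 CPM in controls. The 10 keratinocyte markers, 8 of them tested, 0 called by edgeR and 3 (Dsg3, Krt1 and Krt10) called higher by DESeq2, summed to 442 to 4523 CPM in DST-MNs libraries and 144 to 333 CPM in controls. Their part in the values of the lipid genes was not tested.

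Transcription factors of macrophage identity, lipid uptake and lysosome genes, 17 listed and 17 tested, had a median log2 change of -0.037, and 0 passed edgeR's test. Tfeb, a master factor of lysosome genes and a relative of MITF, had 30.8, 32.2 and 36.6 CPM in DST-MNs libraries, against 27.2, 22.4 and 21.2 CPM in controls. The groups did not overlap (log2 change 0.49, SE 0.14, adjusted p = 0.179, edgeR). Mitf itself was at 0.41, Tfe3 at 0.041 and Tfec at -0.30, and Spi1, which encodes PU.1, at 0.21. Cebpa, which also acts in fat and sebaceous cells, was at 0.81 (adjusted p = 0.158), and DESeq2 called it higher. Pparg, the lipid-responsive nuclear receptor, was at 0.28 and Irf4 at 1.37, with overlapping libraries for both.

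Il10 (25325) was scarce, with 1.58, 2.42 and 2.51 CPM in DST-MNs libraries, against 4.79, 9.86 and 3.11 CPM in controls. These rested on 23, 33 and 32 counts in DST-MNs libraries and 62, 127 and 40 counts in controls. The groups did not overlap in CPM, and control 2 was the highest. The log2 change was -1.44 (SE 0.48, 95% interval -2.58 to -0.31, adjusted p = 0.213, edgeR), and -0.87 without control replicate 2 (adjusted p = 0.573). In TPM the groups overlapped, because DST-MNs 2 had 3.26 TPM and control 3 had 3.14 TPM.

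The receptor and response genes of interleukin 10 included several of the lowest values in these lists. Of 16 symbols listed, 15 genes were matched and tested, 10 were negative and 5 positive, with a median log2 change of -0.30, and 0 passed edgeR's test. Socs3, a feedback inhibitor of cytokine receptors, averaged 73.3 ± 44.4 CPM in DST-MNs libraries and 232 ± 76.0 CPM in controls (SD, n = 3 each; log2 change -1.66, SE 0.46, adjusted p = 0.166, edgeR). The haem oxygenase gene Hmox1 was at -1.80 (adjusted p = 0.0906), the mRNA decay factor Zfp36 at -1.14 (0.0823), the interleukin 4 receptor gene Il4r at -1.44 (0.0976) and the corepressor Sbno2 at -0.64 (0.179). DESeq2 called these 5 lower. They respond to many stimuli besides interleukin 10. The receptor chains were at 0.30 (Il10ra) and -0.23 (Il10rb), Stat3 was at -0.30, and the receptor antagonist Il1rn was at 1.06 (adjusted p = 0.353).

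**Figure D3:**
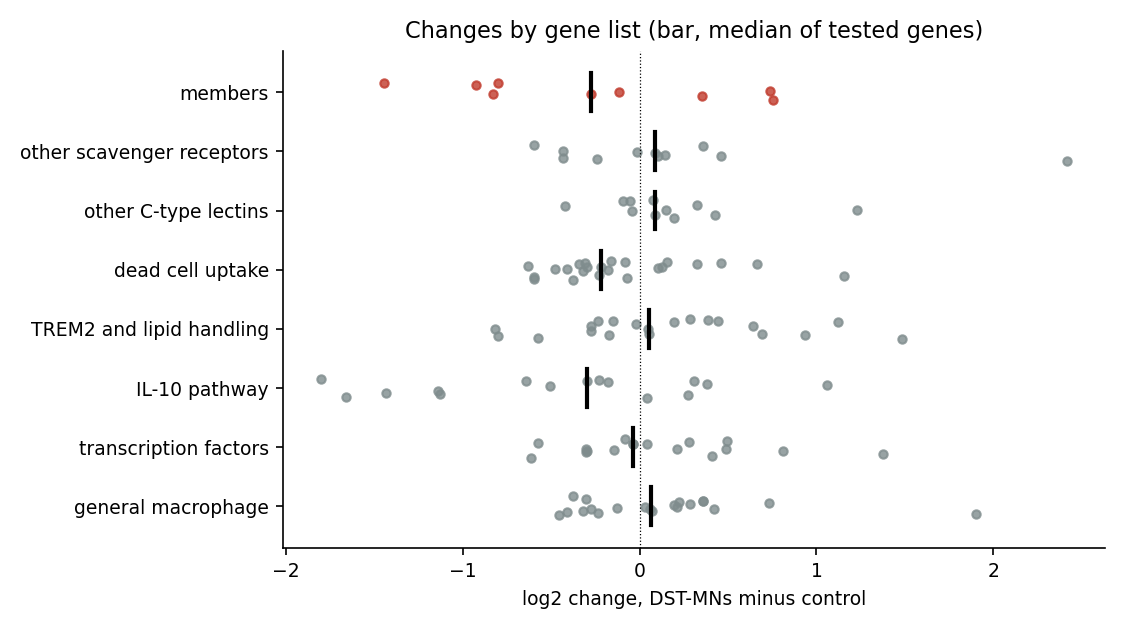
Log2 change of each tested gene, DST-MNs minus control, for the members and 7 related lists, with a bar at the list median. Medians run from -0.30 for the interleukin 10 pathway to 0.089 for other scavenger receptors, and the members spread from -1.44 to 0.75.

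Per transcript length, Gpnmb was the highest member in both groups, at 1177 ± 473 TPM in DST-MNs libraries and 612 ± 361 TPM in controls (SD, n = 3 each). It made up 67.3% to 78.3% of the summed TPM of the 10 members in DST-MNs libraries, against 68.1%, 47.1% and 42.8% in controls 1, 2 and 3. Without Gpnmb the members summed to 471, 457 and 377 TPM in DST-MNs libraries and to 480.0, 495 and 494 TPM in controls.

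In treated wounds Trem2 came second, at 160.3 ± 9.40 TPM, above Clec10a at 114 ± 16.2, Mrc1 at 68.4 ± 16.5 and Stab1 at 34.9 ± 3.46 TPM, and the ranges of these neighbours did not overlap. In controls the order was Clec10a at 178 ± 21.3, Mrc1 at 109 ± 18.3 and Trem2 at 86.2 ± 21.9 TPM, with Mrc1 and Trem2 overlapping and Clec10a above both. Msr1 and its neighbours were not separated: Msr1 overlapped Cd36 and Stab1 in treated wounds, at 25.4, 22.0 and 34.9 TPM, and overlapped Stab1 in controls, at 45.4 and 38.2 TPM. At the low end, Mertk at 7.96 ± 4.23 TPM lay above Il10 at 2.48 ± 0.715 TPM in treated wounds, and in controls Mertk at 5.51 ± 0.291 and Il10 at 5.94 ± 4.01 TPM overlapped.

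The level of Trem2 was also set against those of the lectin receptors within each library. The TPM ratio of Trem2 to Mrc1 was 2.45, 1.84 and 3.04 in DST-MNs libraries, against 1.10, 0.824 and 0.524 in controls, so that Trem2 lay above Mrc1 in every DST-MNs library and also in control 1. The ratio of Trem2 to Clec10a was 1.56, 1.18 and 1.56 in DST-MNs libraries, against 0.710, 0.402 and 0.379 in controls, with Trem2 above Clec10a in every DST-MNs library and below it in every control. A ratio within a library does not depend on its scaling factor.

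The ratio of Gpnmb to Mrc1 was 24.3, 12.6 and 15.2 in DST-MNs libraries, against 10.2, 4.56 and 2.84 in controls. The ratio of Gpnmb to Clec10a was 15.5, 8.06 and 7.77 in DST-MNs libraries, against 6.60, 2.22 and 2.05 in controls. The 4 ratios did not overlap between the groups, with log2 differences of 1.62, 1.58, 1.71 and 1.67 in the order given. Each had p = 0.1 in a two-sided exact permutation test, the smallest that 3 against 3 libraries allow, and 0.1 adjusted over the 4. These 4 pairs were chosen after the values were seen. Trem2, Mrc1 and Clec10a were each apart in TPM, in opposite directions. The Trem2 ratios therefore had to be apart, with the smallest p, and add no support to the separate values. The Gpnmb ratios reuse the Mrc1 and Clec10a values and are not independent of them.

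**Figure D4:**
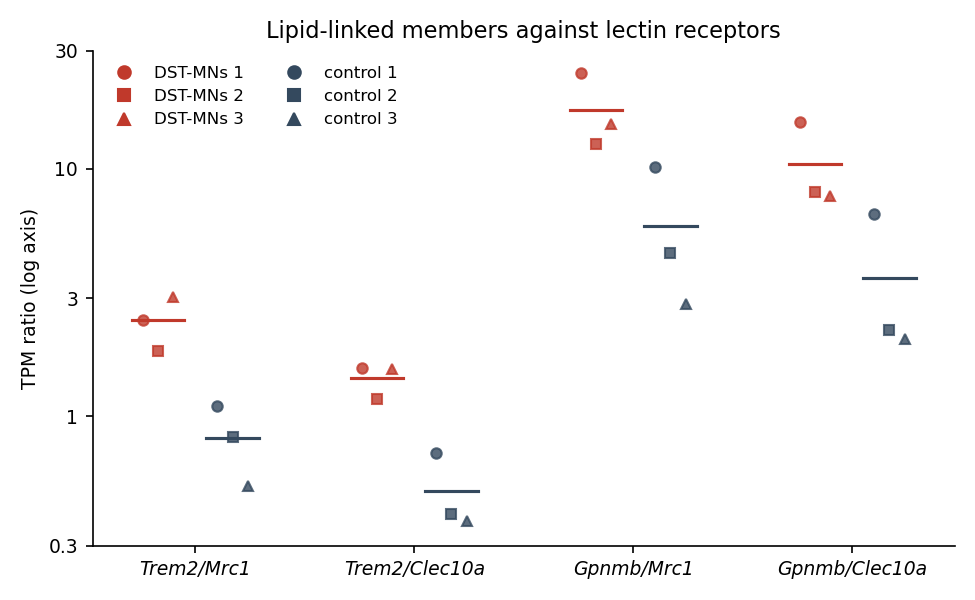
TPM ratio of Trem2 or Gpnmb to Mrc1 or Clec10a in each library, on a log axis, with DST-MNs left of control and a bar for the mean of 3. For Trem2 to Mrc1 the DST-MNs libraries lie between 1.84 and 3.04 and the controls between 0.524 and 1.10.

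Relative to the 20 general macrophage genes of the same library, the members kept their separate directions. The measure was log2(CPM + 1) of a member minus log2 of the summed CPM + 1 of the list. It is not a level per macrophage, and the part of other cells in the list's sum was not tested. The difference, DST-MNs minus control, was -1.13 for Msr1, -0.96 for Mrc1, -0.92 for Clec10a, -1.15 for Il10 and 0.63 for Trem2, and for these 5 the groups did not overlap. Each had p = 0.1 (two-sided exact permutation test, the smallest possible), and 0.18 adjusted over 9 members, so this design could not reach 0.05. Gpnmb was at 0.74 (exact permutation p = 0.3), Stab1 at -0.40 (p = 0.3), Cd36 at -0.32 (p = 0.6) and Mertk at 0.10 (p = 0.9), with overlapping groups.

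**Figure D5:**
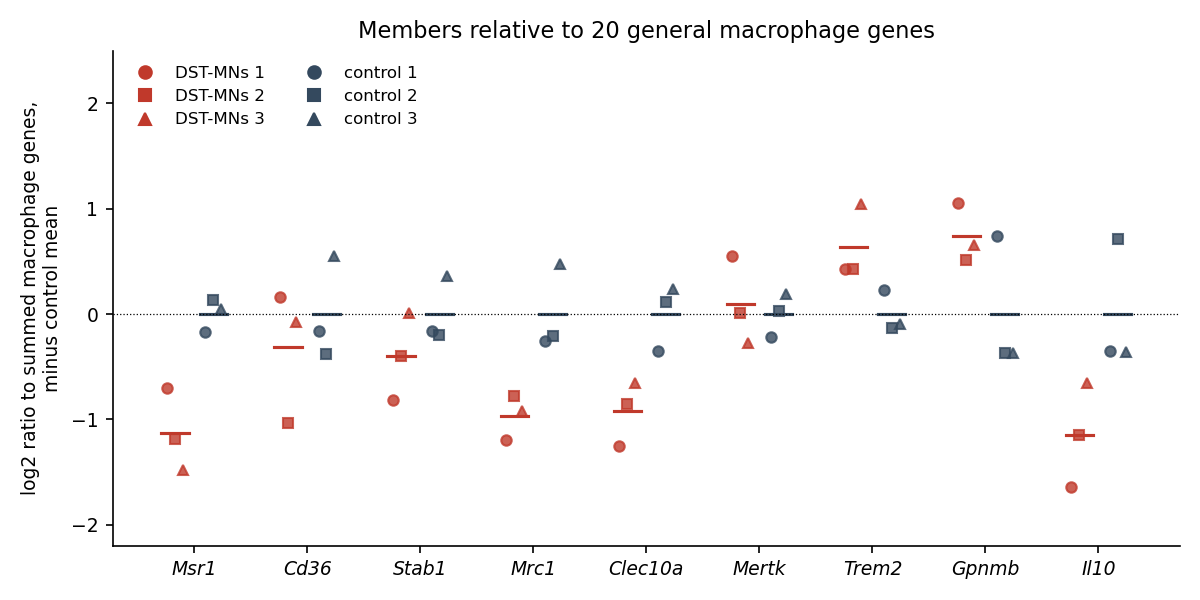
Log2 ratio of each member to the summed CPM of 20 general macrophage genes, shown minus the control mean, with DST-MNs libraries left of controls and a bar for the mean of 3. Msr1, Mrc1, Clec10a and Il10 lie lower in all DST-MNs libraries and Trem2 higher, with control 1 of Gpnmb level with the DST-MNs libraries.

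The general macrophage genes themselves went both ways: of the 20 tested, 12 had positive and 8 negative log2 changes, with a median of 0.063, and 0 were called by edgeR. Lysozyme, Lyz2, gave the largest part of their sum, with 2589.5 ± 609 CPM in DST-MNs libraries and 2122 ± 434 CPM in controls (SD, n = 3 each). Cybb, a subunit of the phagocyte oxidase, was the highest at 1.90 (SE 0.50, adjusted p = 0.156, edgeR), and DESeq2 called it higher. Cd14, the lipopolysaccharide coreceptor, was the lowest at -0.46, C1qb was at -0.41, Itgam at 0.73, Cd68 at 0.36 and Csf1r at 0.23. Dendritic cell markers, 10 of 10 tested, 0 called by edgeR and 2, Xcr1 and the Langerhans cell lectin Cd207, called higher by DESeq2, summed to 146 to 211 CPM in DST-MNs libraries and 105 to 138 CPM in controls. Epcam, in this list, had 45.3, 9.39 and 14.6 CPM in DST-MNs libraries, against 2.32, 0 and 1.94 CPM in controls. The sums were apart only with Epcam included, and whether its RNA came from dendritic cells was not tested. Dendritic cells also express Clec10a, and their part in its values was not tested. Neutrophil markers, 8 of 13 tested, summed to 222 to 579 CPM in DST-MNs libraries and 328 to 923 CPM in controls. Lcn2 alone was called, as lower, by edgeR and by DESeq2.

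For the 3 members with the highest mean CPM, the genes with the nearest profile over the 6 libraries were sought among 13507 tested genes, by the root mean square difference of log2 CPM centred on each gene's mean. Nearest to Gpnmb were Dpep1 (0.17), Cst7 (0.19) and Ppfibp2 (0.19), and nearest to Mrc1 were Ecscr (0.091), Avpr1a (0.12) and Vwf (0.13). Vwf was one of the 10 blood endothelial markers listed, and Ecscr, not in that list, was not classed by cell type here. Nearest to Stab1, whose profile was almost flat, were Resf1 (0.032), Rab11fip5 (0.037) and Ric8a (0.043). None of these 9 passed edgeR's test, and their adjusted p ran from 0.0723 for Vwf to 0.687 for Dpep1.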

How the data were processed

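Per the file headers, the authors counted reads per gene and deposited estimated counts, which were not scaled and in part hold decimals. TPM values, scaled by the authors by length and library total, were used for levels between genes. The deposited FPKM values and the normalised counts, a signal the authors made with 1 factor per library as the values show, were not tested. The build was mRatBN 7.2, per the submitters' processing notes; the aligner and the counter are not stated in the sources used here. Libraries were matched to columns by library name.

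Counts were rounded, filtered with filterByExpr (minimum count 10), scaled with TMM and tested with edgeR 4.0.16 (quasi-likelihood, R 4.3.3) over 14427 genes, with Benjamini-Hochberg adjustment; DESeq2 1.42.0 and limma 3.58.1 (voom, and a trend fit of log2(TPM + 1)) were alternatives. The common biological variation was 30.2%. Depth sets counting precision, and intervals of log2 changes come from the standard error. The fit was tested on simulated data, with 100 genes altered at each size of change. It recovered 21 at 2-fold and 78 at 4-fold, and it made 15 false calls among 14266 genes tested. Set beside the genes recovered, the 15 false calls were a larger share of all calls than the adjusted p threshold aims at. The threshold was thus not held in this simulation. Most 2-fold changes were missed in the simulation, so not passing does not by itself exclude a change of that size in a member. On the log2 scale the intervals of Stab1 (-0.61 to 0.06) and Cd36 (-0.93 to 0.70) lay within a 2-fold change. Those of the other tested members did not. Of 238 list entries, 232 matched by symbol and 3 through RefSeq. The members and lists were chosen with earlier results of these data known. All members were named; from a list, genes past the threshold and those with the smallest p were named, and a few more by role after their values were seen.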

Additional observations from a re-analysis of the deposited data

How the results depend on the processing

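The count of genes called, 112, was 38 with at least 10 counts in every library and 1018 with DESeq2, and 14 to 402 with 1 library left out (402, 34 and 53 without controls 1, 2 and 3, and 23, 34 and 14 without DST-MNs 1, 2 and 3). Members called, 0 with edgeR, were 3 with DESeq2 (Clec10a and Mrc1 lower, Trem2 higher) and 0 to 2 with 1 library left out, the 2 being Clec10a and Trem2 without control replicate 1; limma-voom called 0. The log2 changes of Msr1, Stab1, Mrc1, Clec10a, Trem2, Gpnmb and Il10 kept their sign in all 15 alternatives, between -1.31 and -0.64, -0.34 and -0.13, -0.98 and -0.68, -0.89 and -0.65, 0.57 and 0.98, 0.43 and 1.39, and -1.75 and -0.87. That of Cd36 turned, to 0.019 with total counts and between -0.55 and 0.16 with 1 library left out, and that of Mertk ran between -0.074 and 0.65. Total counts moved the median log2 change of all genes to 0.12. Relative to macrophage genes, with 1 library left out, Cd36 ran from -0.56 to 0.042 and Mertk from -0.13 to 0.28; the other 7 kept their sign. The cause of these shifts was not tested.

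The labels do not say whether the replicate numbers pair the libraries. Correlations of same-numbered deviations were -0.025, 0.10 and 0.11, and not every library was nearest to its own number. With 3 libraries per group these values could not exclude a pairing. With the number as a block, 123 genes and 0 members were called. The block took the SE of Gpnmb from 0.46 to 0.22 and that of Mrc1 from 0.19 to 0.23. Il10, at 23 to 127 counts, is the member that depth limits most after Marco.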
